A study of Mus musculus with 15 samples.

Results

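A set of 10 immediate early genes was followed across all 5 groups of the series: the zinc finger factors Egr1, Egr2 and Egr3, the AP-1 factors Fos, Fosb, Fosl1, Fosl2 and Jun, and the immediate early response genes Ier2 and Ier3. They were chosen by name, and all 10 of 10 were found among the 19937 named genes of the array. Each had exactly 1 probe set. The cells were mouse embryonic stem (ES) cells adapted to 2i, a medium with a pair of kinase inhibitors, and every group came from the same line, in which Ctnnb1, which encodes beta-catenin, carries a knocked-in biotin and 3xFLAG tag alongside the biotin ligase BirA (labelled Ctnnb1-BioFLneo;BirA). CHIR99021, used at 3 µM, inhibits the kinase GSK3. PD0325901, used at 1 µM, inhibits MEK, the kinase that activates ERK, and LIF is a cytokine that signals through STAT3. The 2iLIF group was in long-term culture with CHIR99021, PD0325901 and LIF. The other groups had LIF withdrawn for 24 h, and during that time 2i kept both inhibitors, CHIR kept CHIR99021, PD03 kept PD0325901, and DMSO kept neither. Each group had 3 arrays, 15 in all. The labels do not tie the replicates to separate cultures. A p-value here is set against the spread of these arrays alone, which may be technical.

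Immediate early genes are transcribed within minutes of a stimulus from factors that are already in the cell, with no need for new protein. ERK and its downstream kinases phosphorylate ternary complex factors, which sit with SRF on serum response elements (CArG boxes), and CREB on cyclic AMP response elements. EGR proteins are zinc finger transcription factors, and FOS and JUN proteins pair to form AP-1. Most of these mRNAs decay quickly, so a culture sampled at 24 h shows their sustained level and not the first pulse.

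Values are log2 array values (RMA), so a difference of 1 is a doubling. A gene passed when its limma p, adjusted over all 19937 genes (Benjamini-Hochberg, two-sided), was under 0.05. The groups expressed the defining genes of ES cells: means of Pou5f1 lay between 12.49 and 12.54, those of Sox2 between 11.41 and 11.57 and those of Nanog between 11.74 and 12.72. Of 9 fibroblast and feeder markers, at most 1 passed in any comparison, where 2.04% to 25.5% of all genes passed. The marker was Dcn, lower in CHIR, PD03 and 2i than in DMSO (-0.22, -0.32 and -0.29). Such counts compare groups and cannot show whether a constant share of feeder cells was present. Dusp6, an ERK-induced phosphatase of ERK, had means of 11.06 in DMSO and 10.41 in CHIR against 9.34 in PD03, 9.29 in 2i and 9.48 in 2iLIF. Axin2, a feedback target of beta-catenin, had means of 9.31 in CHIR, 9.19 in 2i and 9.36 in 2iLIF against 7.66 in PD03 and 7.86 in DMSO. Socs3, a target of STAT3, was at 9.0 in 2iLIF and between 7.36 and 7.77 elsewhere.

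Of the 10 genes, 4 passed in at least 1 of the 7 comparisons (Egr1, Jun, Ier3 and Ier2), and 6 passed in none (Egr2, Egr3, Fos, Fosb, Fosl1 and Fosl2). In all, 14 of the 70 tests passed. Of all genes, between 2.04% (interaction) and 25.5% (2i minus DMSO) passed in a single comparison. The share of all genes that passed in at least 1 comparison was not computed. Egr1 was low wherever PD0325901 was present, Jun was low wherever CHIR99021 was present, Ier3 was highest with no factor at all, and Ier2 had the narrowest range of group means among these 4. No difference reached 2-fold, and the largest was 0.65 on the log2 scale.

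**Figure D1:**
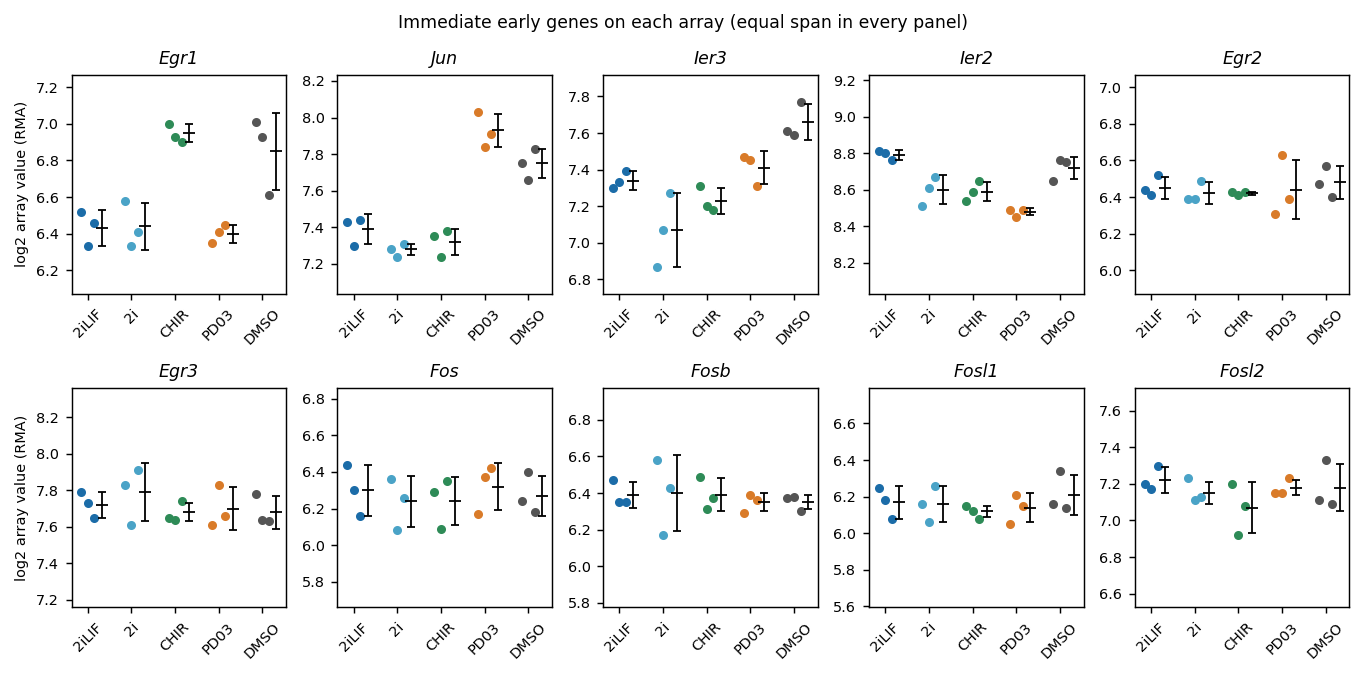
Log2 array value (y axis) of each gene on each array (points, 3 per group) with the group mean and SD beside them (black). Egr1 sits between 6.33 and 6.58 on the 9 arrays with PD0325901, Jun between 7.24 and 7.44 on the 9 arrays with CHIR99021, and neighbouring groups overlap for Egr2, Egr3, Fos, Fosb, Fosl1 and Fosl2.

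Promoter sequences were available from RefSeq (build GRCm38.p6) for 6 of the 10 genes: Jun, Fos, Fosb, Fosl2, Ier3 and Egr2. Egr1, Egr3, Fosl1 and Ier2 had no entry. The last 130 bases before the annotated start are shown 5′ to 3′ for the 2 of them that changed (Jun and Ier3) and for 2 that did not (Fos and Egr2), because they place the response elements named above beside the values. They lie at chr4:95052223-95052352 on the minus strand (Jun), chr17:35821583-35821712 (Ier3), chr12:85473760-85473889 (Fos) and chr10:67537739-67537868 (Egr2, the third of 5 annotated starts), the last 3 on the plus strand. Capitals mark TGACATCA in Jun, TATAA in Ier3, TGACG and TATAA in Fos, and the CArG box and TGACG (on either strand) in Egr2.
Jun: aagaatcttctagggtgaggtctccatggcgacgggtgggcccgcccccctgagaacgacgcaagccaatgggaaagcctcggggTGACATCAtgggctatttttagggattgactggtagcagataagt
Ier3: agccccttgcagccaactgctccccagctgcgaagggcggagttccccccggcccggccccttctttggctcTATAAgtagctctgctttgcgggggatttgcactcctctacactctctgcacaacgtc
Fos: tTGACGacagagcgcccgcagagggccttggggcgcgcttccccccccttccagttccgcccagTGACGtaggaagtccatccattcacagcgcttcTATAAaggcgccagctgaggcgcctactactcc
Egr2: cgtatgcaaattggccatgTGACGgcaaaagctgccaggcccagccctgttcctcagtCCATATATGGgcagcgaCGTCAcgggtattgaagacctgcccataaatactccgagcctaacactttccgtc

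Motifs were searched on both strands of the 250 bases before the start, and their shares are over all 32851 such windows of the RefSeq table. Bases further upstream were not searched, so a motif not found here may still lie there. The CArG box, bound by SRF, was found in 1.47% of windows and among the 6 genes in Egr2 alone, before 4 of its 5 starts (from -72 for the third). The short core of the cyclic AMP response element, TGACG, was in 17.8% of windows, and in Fos (from -129 and from -66), Fosb (from -60) and Egr2. TGACATCA, a variant AP-1 site known from the JUN promoter and added to the search after the other motifs, was in 2.93% of windows and in Jun (from -45). TATAA, also added later, was in 22.8% of windows and in Fos (from -33), Ier3 (from -58) and before the fifth start of Egr2. The EGR site GCGNGGGCG was in 4.70% of windows and in Fosb (from -50) and Fosl2 (from -79). The ETS site CCGGAA (12.0% of windows) was found before another start of Egr2. The full element TGACGTCA (1.55%), which holds TGACG, the AP-1 site TGANTCA (6.75%) and the TCF/LEF site CTTTGA (13.8%) were not found in these windows. A match describes letters and not a bound site.

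Egr1, the best known of the EGR factors and a textbook target of ERK, followed the MEK inhibitor. Its values were 7.01, 6.93 and 6.61 in DMSO and 7.0, 6.93 and 6.90 in CHIR. With PD0325901 they were 6.35, 6.41 and 6.45 in PD03, 6.58, 6.33 and 6.41 in 2i, and 6.52, 6.33 and 6.46 in 2iLIF. All 9 arrays with PD0325901 (6.33 to 6.58) thus read below all 6 arrays without it (6.61 to 7.01), though DMSO replicate 3 came close to 2i replicate 1. The levels with PD0325901 lie near the background guide given below for genes that read low. Egr1 fell by 0.45 ± 0.09 (SE) in PD03 against DMSO, a 1.36-fold lower level (adjusted p = 0.00171). It fell by 0.50 ± 0.09 in 2i against CHIR, which is 1.42-fold lower (adjusted p = 0.00132), and by 0.41 ± 0.09 in 2i against DMSO (adjusted p = 0.0022).

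CHIR99021 gave no detected difference in Egr1. CHIR minus DMSO was 0.10 (95% interval -0.09 to 0.28, adjusted p = 0.537) and 2i minus PD03 was 0.04 (-0.15 to 0.225, adjusted p = 0.838). The effect of PD0325901 with and without CHIR99021 differed by -0.06 (-0.32 to 0.21, adjusted p = 0.925). Nor was a difference detected with LIF, at -0.01 (-0.20 to 0.17, adjusted p = 0.961). The order of the means was CHIR, DMSO, 2i, 2iLIF and PD03, and the only neighbours whose arrays did not overlap were DMSO and 2i. The 3 calls on Egr1 stayed past the threshold when any 1 of the 15 arrays was left out. A filter that kept genes with a group mean of at least 7.4 removed Egr1, so these calls could not be made under it.

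Egr2 and Egr3, relatives of Egr1 that bind similar GC-rich sites, gave no detected difference. Egr2 had means from 6.42 in 2i and CHIR to 6.48 in DMSO, a spread of 0.06 over the 5 groups against an SD of 0.09 within groups. Its 15 arrays ran from 6.31 to 6.63, and those extremes were both in PD03. Egr3 ran from 7.61 to 7.91, with means between 7.68 in CHIR and DMSO and 7.79 in 2i. In 2i minus CHIR, where Egr1 fell, Egr2 stood at 0.00 (-0.14 to 0.14) and Egr3 at 0.11 (-0.05 to 0.27). Arrays of every neighbouring pair of groups overlapped for Egr2 and for Egr3.

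Jun, the partner of FOS proteins in AP-1, followed the GSK3 inhibitor. It read 7.75, 7.66 and 7.83 in DMSO and 8.03, 7.84 and 7.91 in PD03. With CHIR99021 it read 7.35, 7.24 and 7.38 in CHIR, 7.28, 7.24 and 7.31 in 2i, and 7.43, 7.30 and 7.44 in 2iLIF. The 9 arrays with CHIR99021 (7.24 to 7.44) and the 6 without it (7.66 to 8.03) did not overlap. Jun fell by 0.65 ± 0.06 (SE) in 2i against PD03, or 1.57-fold (adjusted p = 8.83e-07), the largest difference among the 10 genes. It fell by 0.42 ± 0.06 in CHIR against DMSO (1.34-fold, adjusted p = 6.46e-05) and by 0.47 ± 0.06 in 2i against DMSO (1.38-fold, adjusted p = 1.39e-05).

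PD0325901 alone did not lower Jun. The gene stood 0.18 ± 0.06 higher in PD03 than in DMSO, with no overlap of arrays and an adjusted p of 0.0433. That call was lost without any 1 of 8 arrays: 2i replicates 1, 2 and 3, CHIR replicate 1, PD03 replicates 1 and 3, and DMSO replicates 1 and 2. Over all 15 such fits the difference ranged from 0.13 to 0.22 and the adjusted p from 0.0277 to 0.192. With CHIR99021 present, PD0325901 made no detected difference to Jun (2i minus CHIR -0.05, interval -0.17 to 0.08, adjusted p = 0.701). The interaction was -0.23 (-0.40 to -0.05) and did not pass over all genes (adjusted p = 0.234). LIF gave 0.11 (-0.01 to 0.235, adjusted p = 0.278). PD03, DMSO and 2iLIF followed each other without overlap in the order of means, while 2iLIF, CHIR and 2i overlapped.

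Markers of neural cells changed in several comparisons, some of them those in which Jun changed. Of 5 such markers (Sox1, Pax6, Nes, Tubb3 and Ncam1), 4 passed as higher and 0 as lower in PD03 minus DMSO. There 16.8% of all genes passed, and Sox1 was at -0.15 (limma adjusted p = 0.163). All 5 were lower in 2i minus PD03, where 19.5% of all genes passed. In CHIR minus DMSO 3 were lower and 1 higher, against 20.8% of all genes passing. In 2i minus DMSO, where Jun fell, 2 were lower and 2 higher, against 25.5%. In 2i minus CHIR, where no difference in Jun was detected, 3 were higher and 0 lower, against 9.46% of all genes passing. Their summed linear value per array was 2270 to 2345 in PD03, 1277 to 1324 in DMSO, 1558 to 1723 in 2i, 1139 to 1166 in CHIR and 1556 to 1652 in 2iLIF. Their part in the differences of Jun was not tested. In bulk RNA, fewer cells with a transcript and less of it per cell cannot be told apart.

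The FOS proteins, which need a JUN partner to bind DNA, gave no detected difference in mRNA. Fos itself read 6.24, 6.40 and 6.18 in DMSO, where ERK was not inhibited, and 6.17, 6.37 and 6.42 in PD03. It read 6.29, 6.09 and 6.35 in CHIR, 6.36, 6.08 and 6.26 in 2i, and 6.44, 6.30 and 6.16 in 2iLIF. Arrays without PD0325901 (6.09 to 6.40) lay inside the range of arrays with it (6.08 to 6.44). PD03 minus DMSO was 0.05 for Fos (-0.15 to 0.24, adjusted p = 0.811).

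Fosb had means from 6.35 in PD03 and DMSO to 6.40 in 2i, and its widest group was 2i, from 6.17 to 6.58. Fosl1 (FRA1), a FOS protein that ERK is known to stabilise, had means from 6.12 in CHIR to 6.21 in DMSO. Fosl2 (FRA2) had means from 7.07 in CHIR to 7.22 in 2iLIF, with its lowest array (6.92) in CHIR and its highest (7.33) in DMSO. For each of these 4 genes, every neighbouring pair of groups in the order of means overlapped.

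Over the 6 genes that never passed, the 36 differences between groups ran from -0.11 to 0.11. The smallest unadjusted p among their 42 tests was 0.144, and 0 of them were under 0.05 before adjustment. The 95% limma intervals of the 36 differences reached from -0.28 to 0.27, so that they covered drops of up to 1.21-fold and rises of up to 1.2-fold. No detection calls were used, and several of these genes read low. As a guide chosen after the values were seen, 1027 olfactory receptor genes, a family of sensory neurons, had a median of 4.90 and a 95th percentile of 6.25 in their means over the 15 arrays. The group means of Fosl1 (6.12 to 6.21) were under that percentile and those of Fos (6.24 to 6.32) straddled it. Those of Fosb (6.35 to 6.40) and Egr2 (6.42 to 6.48) lay a little above it. A low value here may therefore be background. Egr1, which passed, also read near that percentile with PD0325901, at means of 6.4 in PD03, 6.44 in 2i and 6.43 in 2iLIF. Probe sets differ in their own background, and RMA compresses differences at this level.

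**Figure D2:**
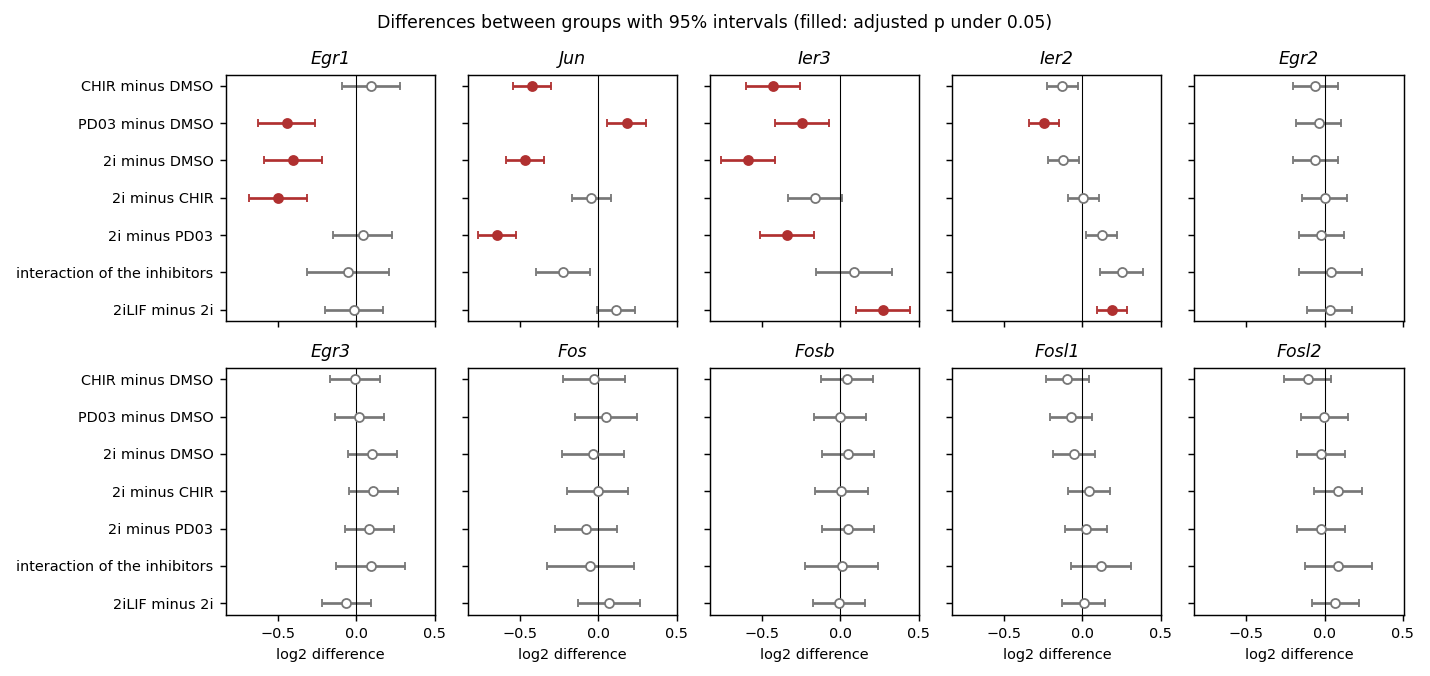
Log2 difference (x axis) with its 95% limma interval for each gene in the 7 comparisons (y axis), filled where the adjusted p was under 0.05. Filled points are found for Egr1, Jun, Ier3 and Ier2 alone, and the largest is Jun in 2i minus PD03 at -0.65.

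Ier3 (also called IEX-1), a short-lived protein linked to cell survival and to ERK signalling, was highest after withdrawal of all factors. Its values were 7.61, 7.59 and 7.77 in DMSO, 7.47, 7.45 and 7.31 in PD03, and 7.31, 7.20 and 7.18 in CHIR. They were 6.87, 7.07 and 7.27 in 2i and 7.30, 7.33 and 7.39 in 2iLIF. Every array of the other 4 groups read below every DMSO array. Ier3 fell by 0.59 ± 0.08 (SE) in 2i against DMSO, 1.51-fold (adjusted p = 3.89e-05), and by 0.43 ± 0.08 in CHIR against DMSO, 1.35-fold (adjusted p = 0.0011). It also fell by 0.34 ± 0.08 in 2i against PD03 (1.27-fold, adjusted p = 0.00631).

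With PD0325901 alone the difference of Ier3 from DMSO was -0.25 ± 0.08 (adjusted p = 0.0465). This call was lost when any 1 of 13 arrays was left out, and held only without 2i replicate 1 or 2i replicate 3, with adjusted p between 0.0147 and 0.19. In 2i minus CHIR the difference was -0.16 (-0.33 to 0.01, adjusted p = 0.268), and it passed without 2i replicate 3 (-0.26, adjusted p = 0.0429). No interaction was detected (0.09, interval -0.155 to 0.33, adjusted p = 0.851). LIF went with a level 0.27 ± 0.08 higher (2iLIF minus 2i, adjusted p = 0.0367). That last call was lost without any 1 of the 3 2iLIF arrays and without 2i replicate 1 or 2, with differences of 0.17 to 0.37 over the 15 fits. The 2i arrays of Ier3 spread widely (SD 0.20, against 0.05 to 0.10 in the other groups). Markers of other cell types also changed with LIF. In 2iLIF minus 2i, 2 of 6 trophoblast markers (Eomes and Krt8) were higher and 0 lower, where 4.56% of all genes were higher. Of 3 mesoderm markers only Eomes passed, and it is the same gene as in the trophoblast list. The other mesoderm markers, Mixl1 and Mesp1, were at 0.07 and -0.02 (limma adjusted p = 0.6 and 0.845). The summed linear value of the trophoblast markers was 2576 to 2600 in 2iLIF and 1757 to 1865 in 2i, and that of the mesoderm markers 945 to 961 and 568 to 600. Their part in the differences of Ier3 and Ier2 with LIF was not tested.

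Ier2, a nuclear protein of the same early class, had the tightest replicates and small differences. It read 8.65, 8.76 and 8.75 in DMSO, 8.49, 8.45 and 8.49 in PD03, 8.54, 8.59 and 8.65 in CHIR, 8.51, 8.61 and 8.67 in 2i, and 8.81, 8.80 and 8.76 in 2iLIF. PD03 was the lowest group and did not overlap with CHIR, its neighbour in the order of means. Ier2 fell by 0.24 ± 0.05 (SE) in PD03 against DMSO, 1.18-fold (adjusted p = 0.00117). It rose by 0.19 ± 0.05 with LIF (2iLIF minus 2i, 1.14-fold, adjusted p = 0.0104). Leaving out 2i replicate 1 ended that call (0.15, adjusted p = 0.0614).

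With CHIR99021 present, PD0325901 made no detected difference to Ier2 (2i minus CHIR 0.01, interval -0.09 to 0.10). The interaction was 0.25 (0.11 to 0.39) with an adjusted p of 0.0619. It passed without 2i replicate 1 (0.29, adjusted p = 0.0291) and without DMSO replicate 1 (0.29, adjusted p = 0.03). CHIR minus DMSO and 2i minus DMSO were -0.13 and -0.12 (adjusted p = 0.0599 and 0.0632). The first passed without 2i replicate 1 (adjusted p = 0.0404), CHIR replicate 3 (0.0467) or DMSO replicate 1 (0.0257), and the second without 2i replicate 3 (0.0301) or DMSO replicate 1 (0.025). In 2i minus PD03, Ier2 was at 0.12 (adjusted p = 0.0759), and at 0.17 without 2i replicate 1 (adjusted p = 0.023).

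**Figure D3:**
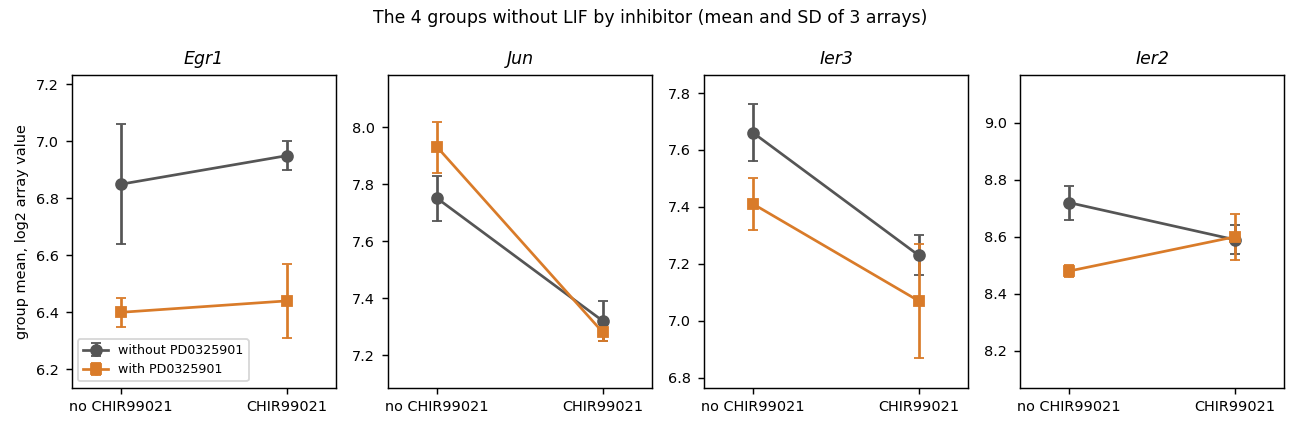
Group means (log2 array value, y axis) with SD of 3 arrays for the 4 groups without LIF, without and with CHIR99021 (x axis), with lines joining groups of the same PD0325901 state. The Egr1 lines run apart and nearly level, the Jun lines fall together from 7.75 and 7.93 to 7.32 and 7.28, and the Ier2 lines meet at 8.59 and 8.60 with CHIR99021.

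Counts of the 10 genes are set here beside the share of all genes. In CHIR minus DMSO 2 passed, both lower, where 20.8% of all genes passed (10.8% lower). In PD03 minus DMSO 4 passed, 3 lower and 1 higher, where 16.8% of all genes passed (8.67% higher and 8.15% lower). In 2i minus DMSO 3 passed, all lower, where 25.5% of all genes passed (11.9% lower). In 2i minus CHIR Egr1 alone passed, as a lower gene, against 9.46% of all genes (3.76% lower). In 2i minus PD03 Jun and Ier3 passed, both lower, against 19.5% (9.44% lower). In 2iLIF minus 2i Ier2 and Ier3 passed, both higher, against 12.2% of all genes (4.56% higher). For the interaction 0 of 10 passed with limma, 2 had an unadjusted p under 0.05 (Ier2 and Jun), and 2.04% of all genes passed. Without overlap of arrays between the groups were 2 of 10 in CHIR minus DMSO (31.9% of all genes), 4 in PD03 minus DMSO (31.4%) and 3 in 2i minus DMSO (36.0%). Those without overlap numbered 1 in 2i minus CHIR (26.8%), 3 in 2i minus PD03 (35.8%) and 2 in 2iLIF minus 2i (26.0%). Median differences of the 10 genes lay between -0.08 (CHIR minus DMSO) and 0.06 (interaction), where those of all genes lay between -0.01 and 0.02. Comparisons with DMSO share the same 3 control arrays, as do those with 2i.

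All 35 genes of a list of other immediate early genes were measured. In 2i minus DMSO 21 of them were lower and 3 higher, with a median difference of -0.20, where 11.9% of all genes were lower and their median was 0.02. In CHIR minus DMSO 22 were lower and 2 higher (median -0.20), where 10.8% of all genes were lower. In PD03 minus DMSO 12 were lower and 7 higher (median -0.08), where 8.15% of all genes were lower and 8.67% higher. In 2i minus PD03 13 were lower and 4 higher, where 9.44% of all genes were lower and 19.5% passed in either direction. In 2i minus CHIR 3 were lower and 5 higher, where 9.46% of all genes passed, and in 2iLIF minus 2i 3 were lower and 9 higher, where 12.2% passed.

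Arc, first known as an activity-regulated gene of neurons, fell by 0.75 ± 0.04 (SE) in CHIR and by 0.80 ± 0.04 in 2i against DMSO. Trib1, a pseudokinase, fell by 0.76 ± 0.07 and 0.91 ± 0.07 in the same comparisons. Myc, the growth factor-induced transcription factor, fell by 1.00 ± 0.13 in PD03 and by 1.07 ± 0.13 in 2i against DMSO. Gadd45b, a stress-induced gene, rose by 1.03 ± 0.09 in PD03 and by 0.97 ± 0.09 in 2i. Klf10, a TGF-beta-inducible factor, rose by 0.56 ± 0.04 in CHIR. The highest adjusted p among these values was 3.47e-05 (limma).

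Klf6, a zinc finger factor, rose by 0.67 ± 0.05 in PD03 and fell by 0.57 ± 0.05 in CHIR against DMSO, and by 0.82 ± 0.05 in 2i against PD03. Gadd45g fell by 0.84 ± 0.12 in 2i against PD03. With LIF, Btg2, an antiproliferative gene, rose by 0.50 ± 0.05, Zfp36 by 0.44 ± 0.07 and the phosphatase gene Dusp1 by 0.33 ± 0.05 (adjusted p up to 0.000371), while Trib1 fell by 0.32 ± 0.07.

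**Figure D4:**
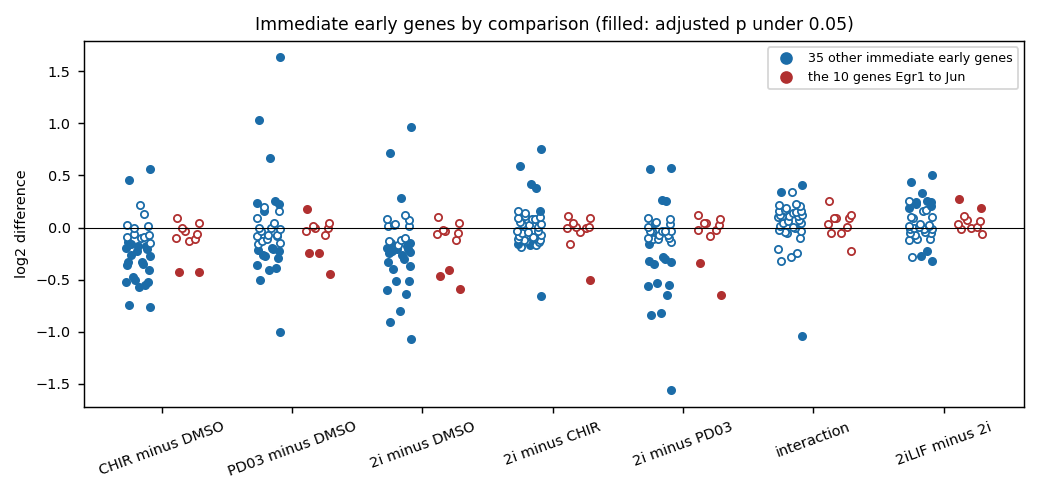
Log2 difference (y axis) in each comparison (x axis) for 35 other immediate early genes (blue) and for the 10 genes from Egr1 to Jun (red), filled where the adjusted p was under 0.05. In CHIR minus DMSO 22 of the 35 are filled below 0, against 2 of the 10.

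Jund, a JUN relative and AP-1 partner, ran beside Jun. Its means were 9.95 in DMSO and 10.20 in PD03, against 9.40 in CHIR, 9.55 in 2i and 9.58 in 2iLIF. Jund fell by 0.55 ± 0.05 (SE) in CHIR against DMSO and by 0.65 ± 0.05 in 2i against PD03, and rose by 0.25 ± 0.05 in PD03 against DMSO (limma adjusted p = 2.04e-06, 4.16e-07 and 0.00341). Junb, the other relative, had means between 7.11 and 7.30 and passed in none of the 7 comparisons. Of 14 AP-1 partners and EGR corepressors, 4 were lower and 1 higher in CHIR minus DMSO, where 20.8% of all genes passed. The 4 lower ones (Jund, Atf3, Maff and Mafk) also belong to the list of other immediate early genes and were counted there. In PD03 minus DMSO 0 were lower and 3 higher, a count near the 16.8% of all genes that passed in either direction (8.67% were higher). The higher ones were Jdp2, a repressor that pairs with JUN (0.40 ± 0.07), Jund and Atf7.

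Among 9 measured genes of the upstream machinery (SRF, its partners, CREB and ERK-activated kinases), Srf and Rps6ka5 each passed in 6 of the 7 comparisons. The means of Srf were 9.48 in DMSO, 9.06 in CHIR, 9.10 in PD03, 8.85 in 2i and 8.69 in 2iLIF. Srf fell by 0.42 ± 0.04 (SE) in CHIR, by 0.38 ± 0.04 in PD03 and by 0.63 ± 0.04 in 2i, each against DMSO (limma adjusted p up to 3.43e-06). Rps6ka5 (MSK1), a kinase that acts on CREB and histone H3, fell by 0.30 ± 0.05 in CHIR and rose by 0.15 ± 0.05 in PD03 against DMSO. Elk4, a ternary complex factor, rose by 0.24 ± 0.04 in CHIR and in 2i and by 0.19 ± 0.04 in PD03.

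Of 10 ERK feedback and target genes, 8 fell and 0 rose in PD03 minus DMSO, where 8.15% of all genes were lower, with a median difference of -0.74. The differences were -2.17 ± 0.06 (SE) for Dusp4, -2.09 ± 0.08 for Etv4, -2.0 ± 0.09 for Spry4 and -1.72 ± 0.06 for Dusp6 (limma adjusted p up to 5.86e-10). In 2i minus CHIR 8 of the 10 were lower, against 3.76% of all genes, with a median of -0.65.

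Genes most like each changed member were taken by Pearson correlation over the 15 arrays, as a description, since the arrays share their groups. Egr1 was nearest to Khdrbs1 (0.918), Pmaip1 (0.893) and Ppm1j (0.891). Jun was nearest to Shb (0.955), Hmgcs1 (0.948) and Pias3 (0.945). Ier3 was nearest to Pik3r3 (0.901), Mapk11 (0.895) and Klhdc4 (0.893), and Ier2 to Adi1 (0.894), Acrbp (0.892) and Sgk1 (0.890). Group means of Shb were 8.75 in DMSO and 8.91 in PD03, against 7.85 to 8.04 with CHIR99021. Those of Pmaip1 were 9.93 in DMSO and 9.92 in CHIR, against 8.73 to 9.11 with PD0325901.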

How the data were processed

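Total RNA (300 ng per sample) was labelled with whole-transcript kits and measured on 15 arrays. The authors deposited log2 values per probe set made with RMA, per the submitters' processing notes; the sources used here give neither its version nor an annotation build. RMA equalises the distribution of the arrays, which hides shifts shared by most genes. The table held 34760 probe sets (3.74 to 13.99, array medians 6.98 to 7.06), with 0 columns left unused. Of these, 21640 had exactly 1 symbol in the platform annotation, 1321 had several, and 11799 are unnamed here; the probe set with the highest mean stood for a gene, which gave 19937 genes. Symbols were updated through gene identifiers (21553 matched RefSeq).

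A linear model with 5 group means was fitted to all genes with limma 3.58.1 (lmFit, eBayes) in R 4.3.3, with 10 residual and 5.09 prior degrees of freedom. Precision is limited by the number of arrays, and the median SE of a difference was 0.0509. The interaction is (2i minus PD03) minus (CHIR minus DMSO). The procedure was tested on simulated data. No low-value filter or detection call was used. The members and lists were chosen with earlier results of these data known. All 10 members were named whatever their result; of each companion list, up to 4 genes per comparison with the largest change among those that passed without overlap of arrays (some are not reported here), with Dusp6, Axin2 and Socs3 as checks. Junb was added after its values were seen. Alternatives were each replicate left out, a replicate block, the compared groups alone, a low-value filter, the mean of probe sets, all probe sets, a variance trend, and median scaling.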

Additional observations from a re-analysis of the deposited data

How the results depend on the processing

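Of 1498 values of the 10 genes under alternatives, 1450 stayed on their side of the threshold, 35 lost a call, 13 gained one and 0 reversed a call. Most of them had no call to lose, since 14 of the 70 tests passed in the main fit. Genes that the low-value filter removed are not among these values. The mean of probe sets left the values of the 10 genes as they were, since each had 1 probe set. Values that never passed could change sign, as Egr1 did in CHIR minus DMSO (-0.03 to 0.175 without 1 array). No fit without 1 array kept all 4 calls of PD03 minus DMSO: the count was 2 to 3 of 10, and 2 with all 34760 probe sets tested. Without 1 array, counts were 1 to 2 in 2i minus CHIR, 0 to 1 for the interaction and 0 to 2 in 2iLIF minus 2i. In 2iLIF minus 2i the count was 1 with only the compared groups and 1 with all probe sets. The low-value filter (10374 genes) kept 4 of the 10 genes, gave 0 in 2i minus CHIR because Egr1 was removed, and 1 for the interaction (Ier2, adjusted p = 0.0292). The calls on Egr1 in PD03 minus DMSO and 2i minus DMSO were removed with it. All genes passing the interaction numbered 406, 255 to 437 without 1 array and 249 with all probe sets. Other immediate early genes passing it numbered 3, and 1 to 5 without 1 array, 5 with the filter and 1 with all probe sets (alternatives chosen after seeing the data). The Jun call in PD03 minus DMSO was also lost with only the compared groups (adjusted p = 0.0898), the variance trend (0.0533) and median scaling (0.085). Pooled over the comparisons, 6 of 18 pairs of same-numbered arrays correlated above 0.1 in their deviations, and 11 of 36 samples were nearest to their own number. The comparisons share arrays, so these counts are not independent and cannot exclude a pairing between some groups. In 2i minus CHIR 5 of 6 were nearest to their own number (correlations of 0.063, 0.234 and 0.108). In PD03 minus DMSO and 2iLIF minus 2i it was 3 of 6, and in CHIR minus DMSO, 2i minus DMSO and 2i minus PD03 0 of 6. With the replicate block, 3 genes passed in PD03 minus DMSO, Ier3 being lost (adjusted p = 0.0592), and no other call on the 10 genes changed.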

Other observations

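Regulators of unstable mRNAs, which bind AU-rich elements such as those of early transcripts, were measured as a list of 7. Zfp36 (tristetraprolin), itself an early gene, had means of 7.04 in DMSO, 6.77 in PD03, 6.57 in CHIR, 6.44 in 2i and 6.88 in 2iLIF, and fell by 0.60 ± 0.07 (SE) in 2i against DMSO (limma adjusted p = 3.31e-06). Its relative Zfp36l2 fell by 0.50 ± 0.04 in PD03 against DMSO (adjusted p = 4.24e-07), with an interaction of 0.49 ± 0.06 (adjusted p = 0.000281). Zfp36l1 rose by 0.36 ± 0.05 with LIF (adjusted p = 0.000157).

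Of 9 measured genes that respond to handling stress, 2 were lower and 0 higher in PD03 minus DMSO, where 16.8% of all genes passed, and 3 lower and 1 higher in CHIR minus DMSO, where 20.8% passed. The first count is near the share of all genes that passed in either direction. Lower alone were 8.15% of all genes in PD03 minus DMSO and 10.8% in CHIR minus DMSO. Gadd45a had the largest change, at -0.85 ± 0.06 (SE) in PD03 and -0.40 ± 0.06 in CHIR against DMSO (limma adjusted p = 3.33e-08 and 9.97e-05). The heat shock gene Hspa1a had means between 6.95 and 7.11 in the 5 groups and was lower in CHIR than in DMSO (-0.15 ± 0.05, adjusted p = 0.0393).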
